A study of Rattus norvegicus with 16 samples.

Results

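Bdh1, Acat1, Slc16a1 and Slc16a6 are 4 genes of ketone body synthesis and transport, examined here in rat liver among 12072 genes or identifiers that were tested on each array. They were taken as the non-control probes whose RefSeq identifier belongs to 1 of these symbols, and each gene had 1 probe, printed as 2 spots per array. Bdh1 was chosen by its log2 ratios: its M against C shift, and its MM against M shift, ran in opposite directions in the 2 rows of arrays of a slide. The Bdh1 values are therefore given as a description with no test, and the other 3 genes were carried into the tests.

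Ketone bodies are made in liver mitochondria from the acetyl-CoA that fatty acid oxidation yields, and they leave the liver as fuel for brain, heart and muscle. Acat1, the mitochondrial acetoacetyl-CoA thiolase, joins acetyl units at the start of the route and also works in the opposite direction in tissues that burn ketones. Bdh1, the mitochondrial beta-hydroxybutyrate dehydrogenase, interconverts acetoacetate and beta-hydroxybutyrate at its end. Slc16a1 (MCT1) carries lactate, pyruvate and ketone bodies across the plasma membrane together with a proton, and Slc16a6 (MCT7) belongs to the same carrier family and has been tied to ketone export from hepatocytes. Suckling rat pups live on fat-rich milk and keep ketone production high until weaning.

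The samples were livers of male Sprague-Dawley pups at postnatal day 21, in 4 groups of 4 arrays. Pups of group C had dams given corn oil, and dams of group M received methylmercury, polychlorinated biphenyls and organochlorine pesticides together, dosed at 1 mg/kg/day from gestation day 0 to postnatal day 20. Groups CC and MM had the same corn oil or mixture treatment, and their pups were cross-fostered to another dam of that treatment. Each array carried liver RNA of 2 pups pooled, 8 pups per group, labelled with Cy5, and every array carried the same universal rat reference RNA of 14 cell lines in Cy3, with no dye swap. The labels give no litter for the pups, so p-values measure the spread between these pools. Slide 1 held every corn oil array and slide 2 every mixture array, so the mixture and the slide cannot be told apart. Each slide held 2 rows of 4 arrays, with 2 arrays of each of its groups in each row: C 9, C 10, CC 1, CC 2, M 5, M 6, MM 1 and MM 2 lay in row 1. The mixture was compared with corn oil in pups kept with their own dam (M against C) and in fostered pups (MM against CC), and fostering within each treatment (CC against C, MM against M).

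Per array, Cy5 had a median of 87 to 102 on a background of 67 to 73, and Cy3 one of 130 to 150 on 20 to 26. All 7 hepatocyte markers, albumin among them, were measured, and their mean log2 Cy5 signal lay between 14.4 and 14.6 on the 16 arrays. Their mean log2 ratio was 4.86 on CC 1 and 5.94 to 6.31 on the other 15 arrays. Skeletal muscle markers had a mean log2 Cy5 signal of 11.7 on CC 1 and on CC 2. On the other 14 arrays it was 7.03 to 7.56. Of 8 listed muscle genes 7 had a probe, and this mean rests on the 2 that were tested, Tnnc2 and Tnnt1. Of the untested ones, Acta1, Ckm, Tnnt3 and Myl1 were each well above background on 2 arrays and Myh4 on 0. For exocrine pancreas, 3 markers of 7 listed were tested. Their mean was 9.55 on CC 1, 10.8 on CC 2, 9.22 on MM 1 and 8.41 on M 6. On the other 12 arrays it was 6.57 to 7.40. Values that rest on CC 1 and CC 2 are given without both arrays where this turned a direction, and the part of these markers in the other results was not tested. In such bulk tissue, fewer cells of a type and less RNA per cell cannot be told apart.

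The promoter windows of Bdh1, the gene with the widest spread here, and of Slc16a1, the ketone transporter, are shown as RefSeq gives them on GRCr8, from 250 bases before to 50 bases after the gene's start and on the gene's own strand. The Bdh1 window is chr11:82842587-82842886 on the minus strand and the Slc16a1 window is chr2:194812410-194812709 on the plus strand. Capitals mark CACGC, which is the core GCGTG of the aryl hydrocarbon receptor response element read on the other strand.
Bdh1: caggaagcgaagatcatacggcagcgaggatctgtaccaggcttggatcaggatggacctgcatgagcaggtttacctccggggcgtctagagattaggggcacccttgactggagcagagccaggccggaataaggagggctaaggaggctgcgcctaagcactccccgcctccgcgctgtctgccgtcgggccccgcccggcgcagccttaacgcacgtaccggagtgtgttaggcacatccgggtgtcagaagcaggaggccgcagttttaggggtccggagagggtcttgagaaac
Slc16a1: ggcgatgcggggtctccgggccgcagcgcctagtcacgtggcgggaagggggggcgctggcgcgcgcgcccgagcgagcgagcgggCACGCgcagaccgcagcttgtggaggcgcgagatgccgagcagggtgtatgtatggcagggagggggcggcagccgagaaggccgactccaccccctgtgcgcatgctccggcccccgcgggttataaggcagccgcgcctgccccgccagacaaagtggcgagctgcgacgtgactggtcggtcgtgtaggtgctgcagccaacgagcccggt
The 3 motifs searched on both strands were GCGTG, the nuclear receptor site AGGTCA, and the direct repeat of AGGTCA with 1 base between its copies, which overlaps the former. The response element core was found in 29.7% of 33469 windows of this length, the nuclear receptor site in 16.2% and the direct repeat in 0.0538%. The Slc16a1 window held 1 match to the core, with its first base at -164, and neither of the others. The Bdh1 window and the Acat1 window (chr8:62904993-62905292, minus strand) held none of the 3. A match is a string of letters and no measured site, and the arrays measure RNA, not binding. GC content was 62% in the Bdh1 window, 60% in that of Acat1 and 72.7% in that of Slc16a1. For Slc16a6 no window was used here.

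Acat1 opens the route. Its log2 ratio of liver to reference was 1.92, 2.02, 1.50 and 1.82 on C 9, C 10, C 11 and C 12, a mean of 1.82 ± 0.23 (SD, n = 4). On CC 1 to CC 4 the log2 ratio was 1.90, 2.10, 1.85 and 1.64, a mean of 1.87 ± 0.19 (SD, n = 4). The corn oil groups covered almost the same range.
On M 5, M 6, M 7 and M 8 the log2 ratio was 2.56, 2.25, 1.92 and 2.25, a mean of 2.25 ± 0.26 (SD, n = 4), and on MM 1 to MM 4 it was 2.72, 2.38, 1.87 and 2.16, a mean of 2.28 ± 0.36 (SD, n = 4). The mixture groups lay higher, with M 7 and MM 3 down among the corn oil arrays, so the groups overlapped.

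The Acat1 log2 ratio was 0.43 ± 0.17 (SE) higher in M than in C, which is 1.35-fold with a 95% interval of the log2 difference from 0.07 to 0.79, and 14 of 16 array pairs had the M array higher. This missed the threshold (limma, adjusted p = 0.0871, unadjusted p = 0.0230). In fostered pups the log2 difference was 0.41 ± 0.17 (SE), or 1.33-fold, again in 14 of 16 pairs (limma, adjusted p = 0.102). Of the 3 tested genes, limma called 0 in M against C (2 at an unadjusted p under 0.05), where 20.4% of all genes were called. It called 0 in MM against CC (1 at an unadjusted p under 0.05), where 20.0% were called. Where array row entered the fit as a block, both Acat1 differences passed (limma, adjusted p = 0.0130 and 0.0166). The share of all genes called in that fit is not given here. Both also passed on the scanner's own ratios (log2 differences of 0.51 and 0.64, adjusted p = 0.00318 and 0.000763). On those ratios 4024 and 3957 of all genes were called, where the main fit called 2459 and 2419. The M against C difference passed without M 7 (0.54, adjusted p = 0.0459), and that of MM against CC passed without MM 3 (0.55, adjusted p = 0.0315). Fostering left Acat1 0.06 apart in CC against C and 0.04 apart in MM against M (adjusted p = 0.9998 and 0.9995), the former turning to -0.07 without CC 1 and CC 2.

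Both channels behind this ratio had negative differences, and that of Cy3 was the larger. In the liver channel alone neither comparison passed: the log2 Cy5 difference was -0.11 for M against C and -0.05 for MM against CC (limma, adjusted p = 0.835 and 0.934), where 2.21% and 2.57% of genes were called. The Cy3 intensity of the Acat1 spots, which measures the shared reference RNA, was 398.5 to 483.5 on C arrays, 396.25 to 491 on CC arrays, 298 to 342.5 on M arrays and 296.75 to 338.25 on MM arrays. The corn oil arrays on one slide and the mixture arrays on the other did not overlap in Cy3. The log2 Cy3 difference was -0.52 ± 0.037 (SE) for M against C and -0.48 for MM against CC (limma, adjusted p = 5.06e-09 and 1.46e-08), and 66.2% of genes were called in Cy3 in each comparison. In the ratio a lower reference signal counts as a higher liver value. The part of the Cy3 difference in the difference of the Acat1 ratio was not tested.

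**Figure D1:**
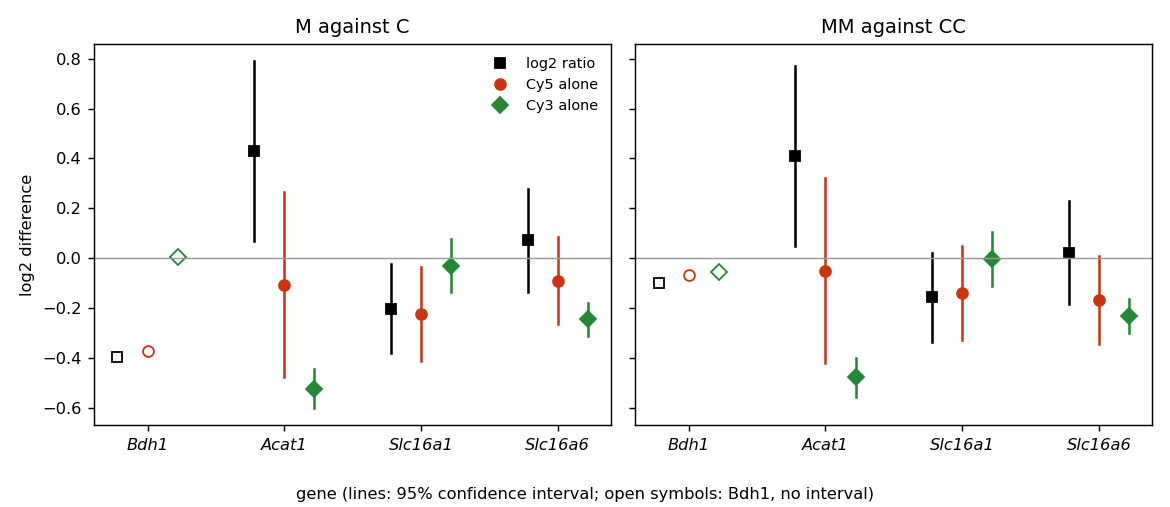
Log2 differences for Bdh1, Acat1, Slc16a1 and Slc16a6 in M against C and MM against CC (vertical axis, log2 units), for the ratio, Cy5 (liver) and Cy3 (reference), with 95% intervals for the 3 tested genes and open points alone for Bdh1. For Acat1 and Slc16a6 the Cy3 points of both mixture comparisons lie below 0, at -0.52 and -0.48 for Acat1 and at -0.25 and -0.23 for Slc16a6, whereas their Cy5 intervals span 0.

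Acat1 differed between array rows within a slide. In each of the 4 groups both row 1 arrays lay above both row 2 arrays, by the smallest margin in M, where M 6 and M 8 both read 2.25 to 2 decimals. The share of all genes with this order was not counted. Between rows, 31.9% of all genes on the mixture slide and 17.1% on the corn oil slide had an unadjusted p under 0.05 (limma). On the slide of the mixture groups the row means of the log2 ratio were 2.48 ± 0.20 in row 1 and 2.05 ± 0.18 in row 2 (SD, n = 4 each). The log2 ratio fell by 0.43 ± 0.12 (SE) from row 1 to row 2 (limma, adjusted p = 0.0260), where 15.5% of all genes were called, and log2 Cy5 fell by 0.44 (adjusted p = 0.0194), where 16.6% were called. Cy3 differed by -0.05. The call was lost without M 5, M 7, MM 1 or MM 3 (adjusted p = 0.0770, 0.0807, 0.102 and 0.0884) and on the scanner's ratio (-0.10, adjusted p = 0.991). On the slide of the corn oil groups the log2 difference was -0.28 (adjusted p = 0.232), where 0.00828% of genes were called. The row difference itself did not pass a test between the slides (-0.14, adjusted p = 0.915), where 0% were called (699 genes at an unadjusted p under 0.05). Within each row, M against C was 0.43 and 0.42, and MM against CC was 0.55 and 0.27.

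**Figure D2:**
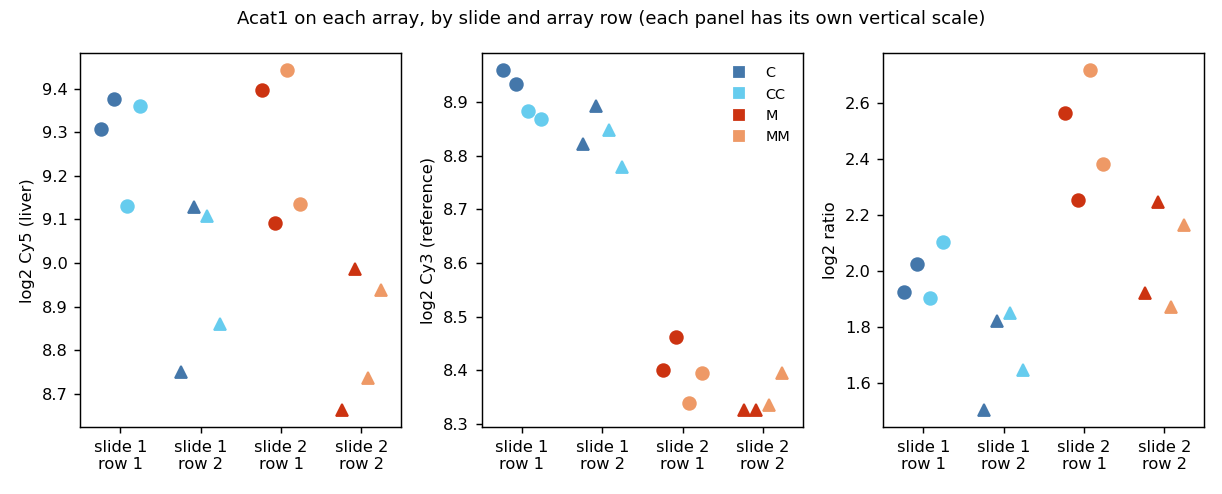
Log2 Cy5, log2 Cy3 and log2 ratio of Acat1 (vertical axes, 1 panel each) on each of the 16 arrays, by slide and array row, coloured by group, where slide 1 holds C and CC and slide 2 holds M and MM. Cy3 separates the slides with no overlap, and Cy5 and the ratio differ between the rows of slide 2 by -0.44 and -0.43.

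Bdh1 closes the route and had the widest spread of the 4 genes. Its log2 ratio was 3.96, 3.66, 3.29 and 2.30 on C 9, C 10, C 11 and C 12, a mean of 3.30 ± 0.72 (SD, n = 4). On CC 1 to CC 4 it was 3.61, 3.69, 3.11 and 3.20, a mean of 3.40 ± 0.29 (SD, n = 4). C 12 stood alone below the other 7 corn oil arrays.
On M 5, M 6, M 7 and M 8 the log2 ratio was 2.32, 2.30, 3.61 and 3.39, a mean of 2.90 ± 0.69 (SD, n = 4), and on MM 1 to MM 4 it was 3.99, 3.84, 3.12 and 2.26, a mean of 3.30 ± 0.79 (SD, n = 4). M 5 and M 6 were low while MM 1 and MM 2, in the same row of the same slide, were the first and the third highest of all arrays. As a ratio to the reference, liver Bdh1 ranged from 4.80-fold on MM 4 to 15.9-fold on MM 1. All 4 groups overlapped.

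The Bdh1 values fell into a low set and a high set that cut across the groups. MM 4, M 6, C 12 and M 5 had log2 ratios of 2.26 to 2.32, and the next array, CC 3, stood 0.79 higher at 3.11. The other 12 arrays ran from 3.11 to 3.99, and the widest gap between neighbours there was 0.22, from M 8 to CC 1. The division into 2 sets was read from these values and was not tested. The low arrays came from 3 groups and both slides. C 12, M 6 and MM 4 were in array column 3, as was CC 2 at 3.69, and M 5 was in column 1. No array of CC was low.

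The single spots showed the same division. Of the 32 spots, 9 had a log2 ratio of 2.14 to 2.47 and 23 had one of 3.01 to 4.13, with a gap of 0.55 between them. Each low array had both its spots in the lower set, and the ninth was 1 of the spots of MM 3. On MM 3 the spots had a Cy5 intensity of 256 and 552 and log2 ratios of 2.47 and 3.77. The 1.30 between them was the widest difference between the paired spots of an array, the next being 0.48 on M 7 and the median 0.20. MM 3 therefore has a mean of 3.12 that neither of its spots shows.

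The spread lay in the liver channel. Cy5 intensity was 844.5, 668.25, 493.75 and 270 on C 9 to C 12 and 836.5, 722.25, 451 and 455 on CC 1 to CC 4. It was 246, 310.25, 612.75 and 560 on M 5 to M 8 and 691.5, 777, 404 and 266.75 on MM 1 to MM 4. The 4 arrays with a low ratio were the 4 with the lowest Cy5 intensity. Cy3 intensity stayed between 105.5 and 132.5 on 15 arrays and was 170.5 on CC 1. The SD within groups was 0.65 for the log2 ratio of Bdh1, at the 99.4th percentile of all tested genes, whose median was 0.15. In Cy5 it was 0.585, at the 99.3rd percentile, and in Cy3 it was 0.0998, at the 89.6th percentile. Bdh1 was chosen for M against C and MM against M shifts that differed between array rows. Such row differences enter this SD, so the Bdh1 percentiles in the ratio and Cy5 follow in part from that choice. Acat1 stood at the 89.7th percentile of the ratio, Slc16a6 at the 43.4th and Slc16a1 at the 24.7th.

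**Figure D3:**
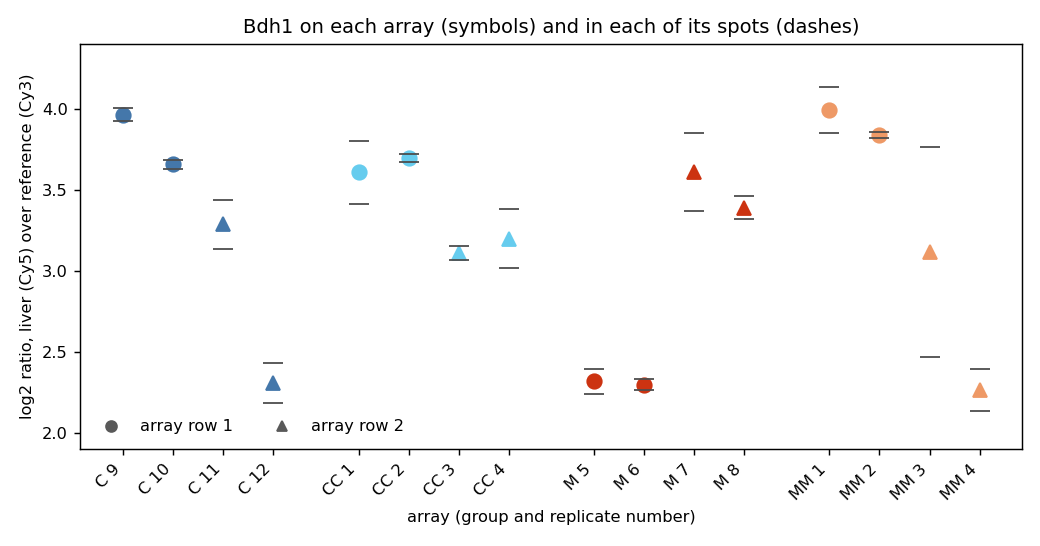
Log2 ratio of Bdh1 (vertical axis) in each of its 2 spots (dashes) and on each of the 16 arrays (symbols, by array row), ordered by group. MM 4, M 6, C 12 and M 5 lie between 2.26 and 2.32, apart from the other 12 arrays at 3.11 and above, and the spots of MM 3 lie 1.30 apart.

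Across all 4 arrays of a group, the Bdh1 log2 difference was -0.40 in M against C, -0.10 in MM against CC, 0.10 in CC against C and 0.40 in MM against M. Without C 9 the M against C difference was -0.18, and without C 12 it was -0.73. Without MM 1 the MM against M difference was 0.17, and without MM 4 it was 0.74. Within array row 1, Bdh1 was 2.83-fold lower in M than in C (log2 difference -1.50), and within row 2 it was 1.63-fold higher (0.70). For MM against M the log2 differences were 1.61 in row 1 and -0.81 in row 2. For MM against CC they were 0.26 and -0.46, and for CC against C -0.16 and 0.36. These are the values for which Bdh1 was chosen, and comparisons that share a group share its arrays. In 3 of the 4 groups, C, CC and MM, both row 1 arrays lay above both row 2 arrays, and in M both lay below. The share of all genes with such an order was not counted.

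The Cy5 channel alone gave like directions for Bdh1, with M against C at -1.29 in row 1 and 0.54 in row 2, and MM against M at 1.39 and -0.59. In Cy3 the 4 comparisons over all arrays lay between -0.05 and 0.07. Without CC 1 and CC 2, the arrays with muscle and pancreas markers, CC against C turned to -0.15 and MM against CC to 0.15. M 6, a low Bdh1 array, had a pancreas marker level of 8.41, and MM 1, the highest Bdh1 array, had 9.22. Over the 16 arrays, which share slides and rows, the log2 ratio of Bdh1 had a correlation of 0.01 with that of Acat1, 0.36 with Slc16a1 and -0.04 with Slc16a6. On the 4 arrays with low Bdh1 the log2 ratio of Acat1 was 1.82, 2.56, 2.25 and 2.16 (C 12, M 5, M 6 and MM 4), within the 1.50 to 2.72 of the other arrays.

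**Figure D4:**
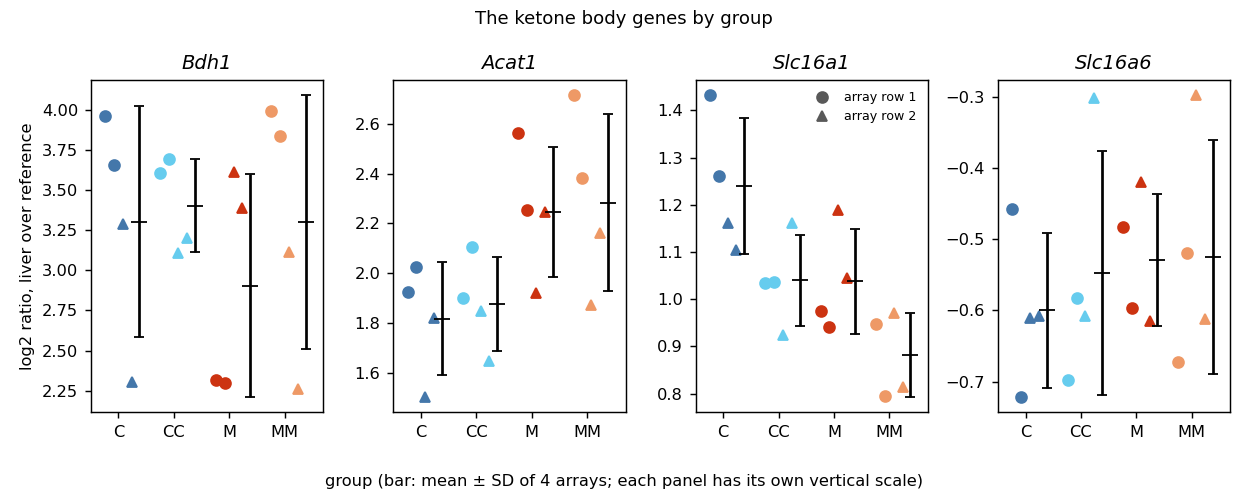
Log2 ratio (vertical axes, each with its own scale) of Bdh1, Acat1, Slc16a1 and Slc16a6 on each of the 16 arrays by group (C, CC, M, MM), with bars for the mean and SD of 4 arrays and symbols for array row. Bdh1 spreads over 2.26 to 3.99 within overlapping groups, whereas Slc16a1 stays between 0.80 and 1.43 and Slc16a6 between -0.72 and -0.30.

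Slc16a1, the main ketone and lactate carrier, had the smallest SD within groups of these genes in the log2 ratio, 0.112 against 0.138 for Slc16a6, while in Cy5 Slc16a6 had the smaller, 0.113 against 0.124. Its log2 ratio was 1.43, 1.26, 1.16 and 1.11 on C 9 to C 12, a mean of 1.24 ± 0.14 (SD, n = 4), and 1.03, 1.04, 0.93 and 1.16 on CC 1 to CC 4, a mean of 1.04 ± 0.097 (SD, n = 4). It was 0.97, 0.94, 1.19 and 1.05 on M 5 to M 8, a mean of 1.04 ± 0.11 (SD, n = 4), and 0.95, 0.80, 0.97 and 0.81 on MM 1 to MM 4, a mean of 0.88 ± 0.090 (SD, n = 4). C had the highest mean and MM the lowest, with CC and M together between them, and each group overlapped its neighbours.

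The Slc16a1 log2 ratio was -0.20 ± 0.084 (SE) in M against C and -0.16 ± 0.084 (SE) in MM against CC (limma, adjusted p = 0.102 and 0.206). Fostering gave differences of about the same size, -0.20 in CC against C and -0.16 in MM against M (adjusted p = 0.9998 and 0.999, unadjusted p = 0.0302 and 0.0837). In each of these 4 comparisons only 2 of 16 array pairs had the first group higher. Limma called 0 of the 3 tested genes in CC against C and in MM against M (1 and 0 at an unadjusted p under 0.05), where 0% of all genes were called in either (336 and 275 at an unadjusted p under 0.05). Within row 1, M against C was -0.39 (adjusted p = 0.0318), the 1 call among the 3 genes there, where 14.4% of all genes were called. Within row 2 it was -0.016 (adjusted p = 0.946), where 8.19% were called, and the difference between the rows was not tested. In Cy5 alone the differences were -0.22 and -0.14 for the mixture comparisons (adjusted p = 0.227 and 0.507), and in Cy3 they were -0.03 and -0.003. Cy3 intensity for Slc16a1 was 599 on CC 1 and 413.75 to 532.25 on the other arrays, and CC against C was -0.20 without CC 1 and CC 2 as well.

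Slc16a6 gave a dim liver signal, with a Cy5 intensity of 93.25 to 132.75 on backgrounds of the size given above and a Cy5 signal well above background on 15 of 16 arrays. Its log2 ratio was -0.46, -0.72, -0.61 and -0.61 on C 9 to C 12 and -0.70, -0.58, -0.61 and -0.30 on CC 1 to CC 4. It was -0.48, -0.60, -0.42 and -0.62 on M 5 to M 8 and -0.67, -0.52, -0.30 and -0.61 on MM 1 to MM 4. The group means were -0.60 ± 0.11, -0.55 ± 0.17, -0.53 ± 0.093 and -0.53 ± 0.16 (SD, n = 4 each), and the ranges of all groups overlapped, those of CC and MM reaching up to -0.30.

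The Slc16a6 log2 difference was 0.07 in M against C, with a 95% interval from -0.14 to 0.28, and 0.02 in MM against CC, from -0.19 to 0.23 (limma, adjusted p = 0.657 and 0.904), the latter turning to -0.07 without CC 1 and CC 2. In Cy5 the differences were -0.09 and -0.17 (adjusted p = 0.658 and 0.364). The Cy3 channel again separated the slides, with log2 differences of -0.25 ± 0.031 (SE) and -0.23 (limma, adjusted p = 4.48e-06 and 8.15e-06). In each of these comparisons 66.2% of all genes were called in Cy3. In the interaction of mixture and cross-fostering limma called 0 of the 3 tested genes (0 at an unadjusted p under 0.05), where 0% of all genes were called (349 at an unadjusted p under 0.05).

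The other genes of the route showed where the 4 stand. Of the ketogenesis list, 9 of 10 genes had a probe, and 7 besides Bdh1 were tested. Limma called 0 of the 7 in M against C (2 at an unadjusted p under 0.05) and 0 in MM against CC (1 at an unadjusted p under 0.05), where 20.4% and 20.0% of all genes were called. Their median log2 difference was 0.0082 and -0.031, where the median of all genes was -0.051 and -0.058. Acaa2, the mitochondrial thiolase of fatty acid oxidation, stood at 0.25 in the ratio of M against C (adjusted p = 0.0535) and passed without M 5 or without MM 1 (adjusted p = 0.0336 and 0.0464), while without M 7 it stood at 0.16 (adjusted p = 0.158). Its Cy5 difference had the other sign, -0.13 (adjusted p = 0.589), beside a Cy3 difference of -0.32. In Cy3, 5 of the 7 were called lower in each mixture comparison. Of all 12072 genes, 3429 and 3434 were called lower in Cy3 and 4560 and 4555 higher, together 66.2% in each. In Cy5 limma called 0 of the 7 in either, where 2.21% and 2.57% were called.

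Ketone use is not a task of hepatocytes. Oxct1, which starts ketone breakdown in other organs, had a log2 difference of -0.23 for M against C and -0.42 for MM against CC (adjusted p = 0.285 and 0.0525). The MM against CC value was -0.09 (adjusted p = 0.634) without CC 1 and CC 2, the arrays with muscle and pancreas markers, and -0.27 (adjusted p = 0.148) without CC 1 alone. It passed without CC 3, CC 4 or MM 3 (adjusted p = 0.0193, 0.0232 and 0.0495). Aacs, which uses acetoacetate for lipid synthesis in the cytosol, stood at -0.21 and -0.03. The latter turned to 0.19 without CC 1 and CC 2 (limma, adjusted p = 0.511). Both genes tested of 3 listed missed the threshold in both comparisons.

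Among the monocarboxylate transporters and their chaperones, 12 of 18 listed genes were tested, Slc16a1 and Slc16a6 included. Limma called 1 lower and 0 higher in M against C, and again 1 lower and 0 higher in MM against CC, where 20.4% and 20.0% of all genes were called in either direction. The first was Slc16a11, a carrier of the same family expressed in liver. Its log2 ratio was 3.82 to 3.97 on C arrays and 2.99 to 3.58 on M arrays. It fell by 0.56 ± 0.12 (SE, limma, adjusted p = 0.00505) in the ratio. In Cy5 it fell by 0.63 (adjusted p = 0.00766), where 2.21% of all genes were called. It passed on each of the 16 occasions when a single array was left out. In MM against CC the Slc16a11 difference was -0.34 (adjusted p = 0.0617), and it passed without CC 1, M 5 or MM 4 (adjusted p = 0.0178, 0.0310 and 0.0475). Slc16a4, another member of the family, stood at 0.48 in M against C (adjusted p = 0.0747) and passed at 0.70 without M 5 (adjusted p = 0.00265). The second was Bsg, the chaperone that brings MCT1 to the membrane, which fell by 0.39 ± 0.13 (SE, adjusted p = 0.0472) in the ratio of MM against CC. Bsg differed by -0.08 in Cy5 (adjusted p = 0.796) and by 0.16 in Cy3. Without MM 3 the Bsg difference was -0.25 (adjusted p = 0.132), and without CC 1 and CC 2 it was -0.27 (adjusted p = 0.313). The Bsg call was also lost without any 1 of C 10, C 12, CC 1, CC 2, CC 3, M 5, M 6, M 7, M 8 or MM 4, with the highest adjusted p = 0.111 among these. The list's median log2 difference was 0.0084 for M against C and -0.064 for MM against CC.

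Of the regulators of ketogenesis and the genes that supply it with fatty acids, 17 of 19 listed were tested. In M against C limma called 3 lower and 0 higher, or 17.6% of the list, where 20.4% of all genes were called. Foxa2, a transcription factor that drives fasting metabolism in liver, fell by 0.68 ± 0.18 (SE, adjusted p = 0.0138). Cpt2, which regenerates acyl-CoA inside the mitochondrion, fell by 0.28 ± 0.085 (SE, adjusted p = 0.0262), and Ehhadh, a peroxisomal oxidation enzyme, fell by 0.51 ± 0.17 (SE, adjusted p = 0.0469). The Foxa2 call held with any single array left out. The Cpt2 call was lost without C 9, M 5 or M 7 (adjusted p = 0.0873, 0.0599 and 0.0529). The Ehhadh call was lost without any 1 of the 4 C arrays, CC 2, CC 3, CC 4, M 5, M 7 or M 8, with the highest adjusted p = 0.137 without M 5. In MM against CC limma called 1 lower, the fatty acid hydroxylase Cyp4a1, by 0.74 ± 0.22 (SE, adjusted p = 0.0282), where 20.0% of all genes were called. MM 3 read 3.62 for Cyp4a1 and the other MM arrays 4.82 to 4.91, and without MM 3 the difference was -0.43 (adjusted p = 0.0299). The Cyp4a1 call was lost without CC 2, without CC 3, and without CC 1 and CC 2 together (adjusted p = 0.0646, 0.0861 and 0.0616). In Cy5 alone 0 of the 17 passed in either comparison, where 2.21% and 2.57% of all genes were called. Foxa2 and Cpt2 were higher in Cy3 by 0.46 and 0.22 in M against C.

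**Figure D5:**
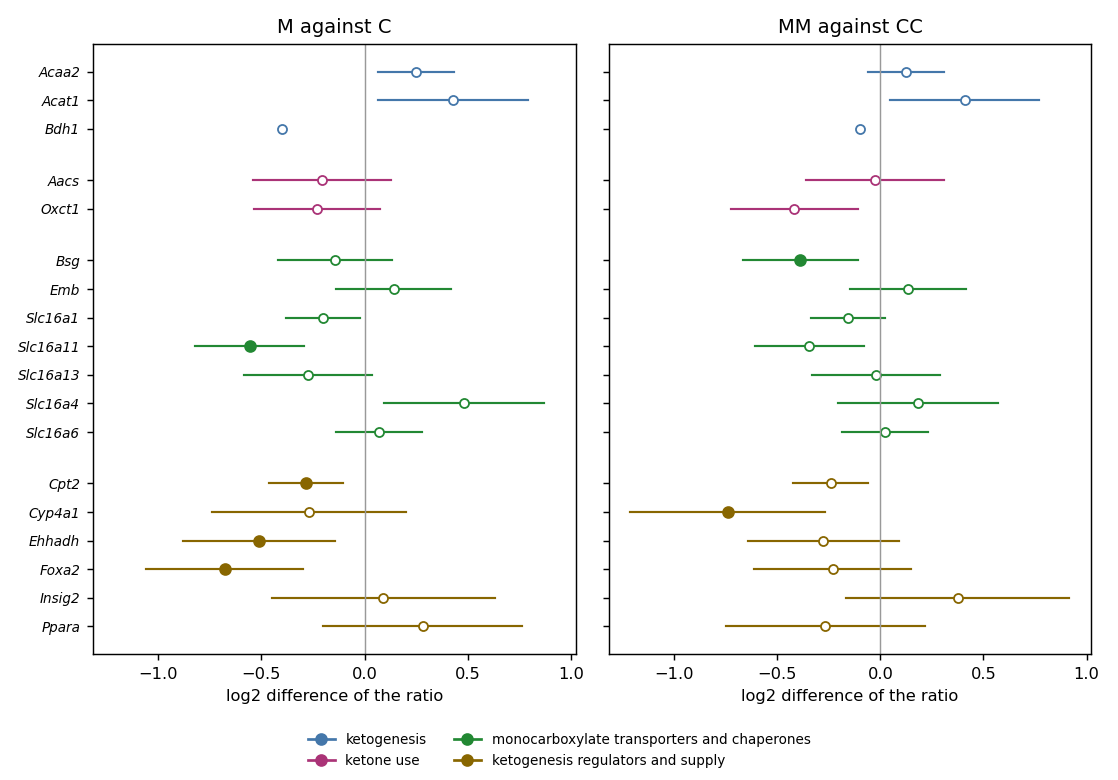
Log2 difference of the ratio with its 95% interval for the genes named here of ketogenesis, ketone use, monocarboxylate transport and ketogenesis regulation, in M against C and MM against CC, with filled points for an adjusted p under 0.05 and Bdh1 as a point alone. Filled points lie below 0 and are Slc16a11, Cpt2, Ehhadh and Foxa2 in M against C, and Bsg and Cyp4a1 in MM against CC.

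Between array rows on the slide of the mixture groups, 15.5% of all genes were called. On the scanner's ratio 0 genes were called there, and leaving out single arrays gave 378 to 2228. The calls that follow are on the log2 ratio computed here. Of the 7 ketogenesis genes, Acat1 alone passed, lower in row 2. Of the 12 transporters, 2 were higher in row 2, Emb by 0.43 ± 0.074 (SE, adjusted p = 0.00752) and Slc16a13 by 0.41 ± 0.11 (SE, adjusted p = 0.0235). Of the 17 regulators, 2 were higher: Insig2, which holds back sterol synthesis, by 0.74 ± 0.15 (SE, adjusted p = 0.00981) and Ppara, a nuclear receptor for fatty acids, by 0.58 ± 0.17 (SE, adjusted p = 0.0326). The Slc16a13 call was lost without M 7, MM 1, MM 2 or MM 3 (highest adjusted p = 0.0781). The Ppara call was lost without any 1 of the 4 M arrays, MM 1, MM 2 or MM 4 (highest adjusted p = 0.0817). On the slide of the corn oil groups 0 genes of the 4 lists besides Bdh1 passed in limma (7 at an unadjusted p under 0.05). Of all genes, 0.00828% were called on that slide and 17.1% had an unadjusted p under 0.05. Slc16a1 and Slc16a6 did not pass there or on the slide of the mixture groups, with log2 differences of -0.10 and 0.09 for Slc16a1 and 0.08 on each slide for Slc16a6.

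The genes whose log2 ratio ran most like each of the 4 over the 16 arrays were sought among 7894 named genes, as a description. For Bdh1 these were C8h11orf65 and Isoc2b, each with a correlation of 0.74, and Coq3, a methyltransferase of coenzyme Q synthesis, with 0.73. In Cy5 alone the same genes had 0.45, 0.50 and 0.56. Lamp1, a lysosomal membrane protein, and Commd3 were among those most like Acat1, with 0.92 and 0.91, and they had 0.74 and 0.60 in Cy5. Hipk2 (0.84), the acyl-CoA thioesterase Acot4 (0.83) and Cpt2 (0.82) were most like Slc16a1, with 0.53, 0.87 and 0.59 in Cy5. Map3k7 and Lsm10 were most like Slc16a6, each with 0.74, and had 0.73 and 0.38 in Cy5. The arrays of a slide share its Cy3 offset, which enters every ratio.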

How the data were processed

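Liver RNA (Cy5) was hybridised against one reference RNA (Cy3) on 16 two-colour Agilent arrays. Per the file headers, spots were read with Feature Extraction 11.0.1.1, and the deposited median intensity of spot and local background in each channel was used. The deposited log10 ratio of the scanner software and the authors' deposited log2 ratio table served as alternatives; the normalization behind that table is not given in the sources used here. The table's columns correlated with the log2 ratios computed here from the intensities at 0.996 to 0.997, with slopes of 0.997 to 1.009. The table's direction is therefore Cy5 over Cy3, on a log2 scale, with column medians of -0.049 to -0.037.

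Here the background was corrected by normexp (offset 50, which compresses ratios of dim spots), control spots (4259 of 62976) had weight 0, outlier spots (1.32 to 1.85% per array) were left out, and loess was run within arrays. For the single channels, the background-corrected intensities were brought to one scale by quantile normalization between arrays, without the loess step. Median signals stood in for the mean signals the plan had assumed. Of 30367 probes, 13262 were well above background in Cy5 in at least 3 arrays of a group. Keeping the probe with the highest mean signal for each gene or identifier left 12072. RefSeq identifiers gave 18005 probes a symbol and left 12362 without.

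Group means were fitted over all 16 arrays with limma 3.58.1 (R 4.3.3, 12 residual degrees of freedom), row effects per slide in a second fit, and p-values were adjusted by Benjamini-Hochberg over all 12072 at a threshold of 0.05. A log2 difference is always a difference of the quantity named, and its fold is the power of 2. The number of arrays limits the precision. Scripts were tested on simulated data.

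The members and lists were chosen with earlier results of these data known. Named genes are the members, up to 4 others of each list with the smallest unadjusted p in a comparison, and the 3 genes most correlated with each member. Some genes that this rule covers are counted in their lists but not reported here by name. Alternatives covered the background correction, filter, centring, scanner and series tables, single channels, row and replicate blocks, and leaving out each array. Leaving out CC 1 and CC 2 together, and single arrays for counts in 1 channel and for list genes, was chosen after seeing the data. Replicate numbers shared by CC and MM gave correlations of 0.34, 0.057, 0.19 and 0.11 between deviations from the group means, so they were not taken as pairs.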

Additional observations from a re-analysis of the deposited data

Results flagged for a closer look

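Bdh1 moved in opposite directions in the array rows, which is the pattern it was chosen for. Within row 1 the log2 difference of M against C was -1.50 and within row 2 it was 0.70, both M arrays lying below both C arrays in row 1 and above them in row 2. For MM against M the differences were 1.61 in row 1 and -0.81 in row 2, again with no overlap of the arrays compared. The difference between the rows was not tested.

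Single arrays stood apart from their group in 2 of 48 groups of 4 values checked for the 4 genes, where chance gives about 1 in 20. The log2 Cy5 signal of Slc16a6 was 6.78 on M 7, apart from the other M arrays. The log2 Cy3 signal of Slc16a1 was 8.98 on C 9, apart from the other C arrays.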

How the results depend on the processing

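Depth is set by signal over background, and Slc16a6 was dim in Cy5. Without CC 1 and CC 2 (chosen after seeing the data) 1465 genes were called in MM against CC and 0 by row on the corn oil slide; on the scanner's ratio 4024 (M against C), 3957 (MM against CC), and 0 by row on either slide. Fitting only CC and MM gave 1547, and no filter gave 1241 by row on the mixture slide. Leaving out single arrays gave 0 to 87 genes by row on the corn oil slide (87 without MM 3) and 378 to 2228 on the mixture slide (868 without M 5, 893 without M 7, 378 without MM 1, 817 without MM 3). It gave 154 to 376 in Cy5 for M against C (154 without C 9, 162 without M 5, 164 without M 6) and 203 to 336 for MM against CC (203 without CC 2). With a replicate block 1999 genes were called in MM against CC, where 2419 were without it; no member's call changed (Acat1 adjusted p = 0.0739). Not every array correlated best with its own number. The causes of these shifts were not tested.

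Acat1 turned sign in M against C (-0.11) and MM against CC (-0.051) in Cy5. It turned in CC against C to -0.026 (Cy5), -0.014 (scanner) and -0.071 (without CC 1 and CC 2), in MM against M to -0.066 (within row 2), and in the interaction to 0.055 (Cy5), 0.12 (scanner), 0.00022 (series table) and 0.11 (without CC 1 and CC 2). Single arrays moved these from -0.048 to 0.13, -0.11 to 0.18 and -0.16 to 0.12. Slc16a6 turned in M against C to -0.090 (Cy5), in MM against CC to -0.17 (Cy5), -0.053 (scanner) and -0.070 (without CC 1 and CC 2), in CC against C to -0.012 (series table) and -0.050 (row 1), and in MM against M to -0.031 (Cy5), -0.13 (scanner), -0.024 (series table) and -0.056 (row 1). Its row difference turned to -0.020 on the corn oil slide and 0.10 between slides (both without CC 1 and CC 2), and 0.0080 between slides with no background correction. Single arrays moved Slc16a6 from -0.030 to 0.10 (CC against C), -0.054 to 0.10 (MM against CC), -0.072 to 0.053 (MM against M), -0.12 to 0.033 (interaction) and -0.075 to 0.081 (rows between slides), and Slc16a1 from -0.019 to 0.096 (interaction). None of these passed the threshold.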
